A study of Arabidopsis thaliana with 6 samples.

Results

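The 319 regions described here are places in the endosperm genome where CG methylation of pat *nrpd1+/-* endosperm stood apart from both other genotypes of the study. They are 45.1% of the 707 CG differentially methylated regions (DMRs) listed between WT and pat *nrpd1+/-*. Each was chosen by its own methylation values: it overlapped by at least 1 bp a CG DMR between pat *nrpd1+/-* and mat *nrpd1+/-*, and it overlapped no CG DMR between WT and mat *nrpd1+/-*. They are called pat-specific CG DMRs below. A difference of at least 30 percentage points from WT, and one of that size from mat *nrpd1+/-*, is therefore true of them by choice and not a finding.

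Whole-genome bisulfite sequencing was done on *Arabidopsis thaliana* endosperm dissected 7 days after pollination, in 6 samples, 2 replicates of each of 3 genotypes. All 3 shared a L*er* mother and a Col-0 father. WT had parents with intact *NRPD1*, mat *nrpd1+/-* a L*er* *nrpd1-/-* mother, and pat *nrpd1+/-* a Col-0 *nrpd1-/-* father, so that the endosperm of both crosses was heterozygous and the loss was complete only in 1 parent. The same allele, *nrpd1a-4*, is a T-DNA insertion in Col-0 and was crossed into L*er* for the mat cross, where stretches of Col-0 sequence remain. Each sample pooled the endosperm of many seeds, and the father of the pat cross had lacked Pol IV throughout its life, so that an effect in pollen and one in earlier tissue cannot be told apart. The listed values pool both replicates of a genotype and are differences in percentage points. Methylation levels, read depths and values per sample are not in the lists, the spread between replicates cannot be given for any DMR, and intervals cover the counting of regions only.

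*NRPD1* encodes the catalytic, largest subunit of Pol IV (RNA polymerase IV), which makes the precursors of the small RNAs that guide RNA-directed DNA methylation. That pathway places methyl groups in all sequence contexts, and its loss shows most at CHH sites (where H stands for any base but G). CG methylation is copied after replication by the maintenance methyltransferase MET1 and can pass through many cell divisions without small RNAs. In *Arabidopsis*, it covers silent transposons together with the other contexts, and occurs alone within the transcribed part of many active genes, away from their starts. In the central cell, which becomes the endosperm after fertilization, the glycosylase DEMETER removes methylation at many sites of the maternal genome.

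To show how unlike these DMRs are in CG content, the central 300 bases (or, for AT3G61010, the 300 bases nearest the centre without UTR) of the 3 largest losses and the 3 largest gains are printed below from the TAIR10 reference, forward strand, with each CG dinucleotide in capitals. The region in *DCL3*, which encodes the Dicer that makes the small RNAs of this pathway, and the region upstream of *LBD4*, which lost methylation in 2 contexts, were added after their values were seen.
AT5G27247 loss, chr5:9601401-9601700: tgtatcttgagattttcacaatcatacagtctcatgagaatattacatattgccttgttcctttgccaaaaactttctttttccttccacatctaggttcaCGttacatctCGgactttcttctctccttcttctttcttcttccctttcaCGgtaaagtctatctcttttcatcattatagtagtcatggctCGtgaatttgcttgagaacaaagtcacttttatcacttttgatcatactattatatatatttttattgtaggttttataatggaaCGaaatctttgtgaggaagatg
AT3G45480 loss, chr3:16682451-16682750: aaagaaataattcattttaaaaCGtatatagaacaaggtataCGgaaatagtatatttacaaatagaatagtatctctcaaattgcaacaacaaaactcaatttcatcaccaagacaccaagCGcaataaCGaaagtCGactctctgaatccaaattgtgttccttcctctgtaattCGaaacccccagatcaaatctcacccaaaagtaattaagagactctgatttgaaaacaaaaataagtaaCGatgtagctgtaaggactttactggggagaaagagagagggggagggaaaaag
AT5G49840 loss, chr5:20256401-20256700: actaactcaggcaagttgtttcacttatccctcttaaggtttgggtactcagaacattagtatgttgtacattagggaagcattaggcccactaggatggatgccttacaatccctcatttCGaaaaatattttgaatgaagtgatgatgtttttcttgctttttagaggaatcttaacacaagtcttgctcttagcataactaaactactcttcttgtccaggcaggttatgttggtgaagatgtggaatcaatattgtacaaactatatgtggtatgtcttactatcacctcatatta
PHYC gain, chr5:14012851-14013150: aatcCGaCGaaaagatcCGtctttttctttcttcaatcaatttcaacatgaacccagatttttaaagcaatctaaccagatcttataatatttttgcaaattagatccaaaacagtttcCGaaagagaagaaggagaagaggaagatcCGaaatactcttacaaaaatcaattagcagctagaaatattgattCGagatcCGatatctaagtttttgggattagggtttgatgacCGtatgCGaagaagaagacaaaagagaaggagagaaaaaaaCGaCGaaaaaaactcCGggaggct
AT3G61010 gain, chr3:22573047-22573346: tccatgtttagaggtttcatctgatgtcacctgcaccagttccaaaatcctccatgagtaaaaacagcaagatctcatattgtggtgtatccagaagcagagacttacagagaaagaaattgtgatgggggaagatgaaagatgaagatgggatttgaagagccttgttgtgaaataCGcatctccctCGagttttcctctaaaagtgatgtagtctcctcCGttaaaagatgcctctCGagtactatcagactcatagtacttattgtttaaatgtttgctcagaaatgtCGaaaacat
AT4G05025 gain, chr4:2584001-2584300: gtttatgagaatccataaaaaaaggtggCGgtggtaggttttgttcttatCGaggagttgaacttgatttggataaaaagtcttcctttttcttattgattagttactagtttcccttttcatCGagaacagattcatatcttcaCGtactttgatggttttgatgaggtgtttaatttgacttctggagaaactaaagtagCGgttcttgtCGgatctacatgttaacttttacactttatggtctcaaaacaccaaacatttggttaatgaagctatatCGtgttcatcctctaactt
LBD4 loss, chr1:11212451-11212750: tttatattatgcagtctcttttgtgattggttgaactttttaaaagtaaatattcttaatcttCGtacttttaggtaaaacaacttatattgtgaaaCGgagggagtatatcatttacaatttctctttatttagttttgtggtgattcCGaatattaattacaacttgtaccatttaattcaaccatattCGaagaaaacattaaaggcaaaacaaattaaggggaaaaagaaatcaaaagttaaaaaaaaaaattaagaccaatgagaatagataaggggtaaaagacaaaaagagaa
DCL3 gain, chr3:15754501-15754800: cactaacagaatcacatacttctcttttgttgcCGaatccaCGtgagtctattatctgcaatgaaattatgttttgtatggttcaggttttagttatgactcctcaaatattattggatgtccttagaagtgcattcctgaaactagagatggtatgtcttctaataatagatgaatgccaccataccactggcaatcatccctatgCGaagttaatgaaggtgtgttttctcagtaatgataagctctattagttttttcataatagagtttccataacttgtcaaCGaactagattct
The 300 bases shown from the region near *PHYC* hold 12 CG dinucleotides and those from AT5G49840 hold 1, and both regions changed by over 70 points.

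Of the 319 pat-specific CG DMRs, 182 were lower in pat *nrpd1+/-* than in WT (hypomethylated) and 137 were higher (hypermethylated). The hypomethylated share was 57.1% (exact Clopper-Pearson 95% interval 51.4% to 62.6%). Among the other 388 DMRs of the same list it was 62.6% (interval 57.6% to 67.5%). Among the 200 CG DMRs chosen in the same way for mat *nrpd1+/-*, which differed from both WT and pat *nrpd1+/-*, it was 50.5% (interval 43.4% to 57.6%). These intervals overlap between the pat-specific DMRs and each other set. As background, of the 300-bp windows of sequence kept in WT and pat *nrpd1+/-* that hold at least 1 CG dinucleotide, 0.109% lay within a CG DMR of this comparison, 0.0684% within a hypomethylated and 0.0408% within a hypermethylated one. Because the members were drawn from those DMRs, nothing is read from that share.

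The pat-specific DMRs had larger differences from WT than the rest of their list. The median absolute difference was 39.4 points (order-statistic 95% interval 38.2 to 41.4, range 30.03 to 96.6), against 35.1 points (interval 34.7 to 35.9) for the other 388 and 37.0 points (interval 35.6 to 38.1) for the 200 mat-specific DMRs. Hypomethylated members had a median of -38.8 points and hypermethylated ones of 40.3 points. In 31 of the 319 (9.72%) the difference was 60 points or more, as it was in 14 of the other 388 (3.61%). The choice itself favours large differences, since a DMR that is far from WT is more readily far from mat *nrpd1+/-* as well, and these values are given as a description.

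**Figure D1:**
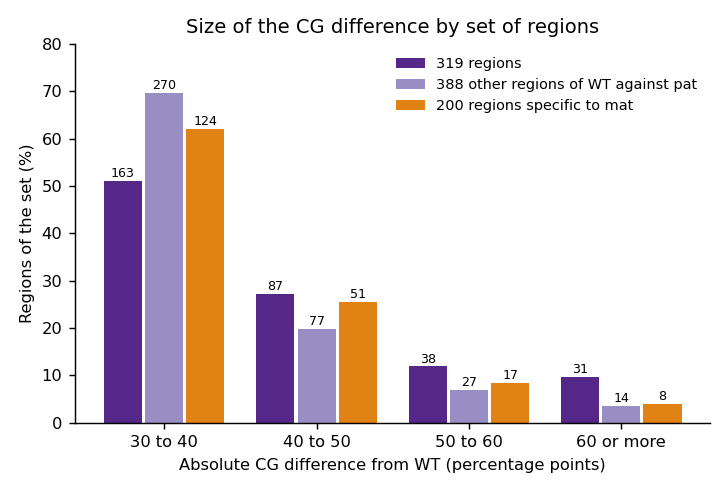
Share of regions (y axis, percent of each set) by absolute CG difference from WT in percentage points (x axis), for the 319 pat-specific DMRs, the other 388 DMRs of WT against pat *nrpd1+/-* and the 200 mat-specific DMRs (for these, the difference of mat *nrpd1+/-* from WT). Numbers above the bars are counts of regions. Of the pat-specific DMRs, 163 lay between 30 and 40 points, 51.1% against 69.6% of the other DMRs of the list.

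The rest of the list is accounted for as follows. Another 266 of the 707 DMRs (37.6%) lay wholly in sequence kept in mat *nrpd1+/-* but in neither other list. A further 82 lay at least partly in sequence that the authors' filter on maternal reads removed from mat *nrpd1+/-*, and 3 overlapped a CG region that varied between its replicates. Finally, 32 overlapped a DMR of WT against mat *nrpd1+/-* only and 5 a DMR of both other lists. All 319 members lay wholly in the sequence kept in all 3 genotypes, 88.7 Mb, and covered 123.3 kb of it.

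The members nearest the 30-point threshold were a loss of -30.03 points in AT1G20060, a microtubule motor gene, a gain of 30.05 points 719 bp upstream of AT3G27910, and a loss of -30.07 points 866 bp from a snoRNA gene, AT3G24612. At the other edge, 2 members overlapped their DMR of pat against mat by 100 bp, the smallest overlap. The nearest DMR left out, at chr2:5052001-5052300 with -34.7 points, ended directly beside such a DMR with a gap of 0 bp, and 7 DMRs left out lay within 300 bp of one.

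The difference from mat *nrpd1+/-* was used by the choice of members as well. Opposite signs need WT and mat *nrpd1+/-* about 60 points apart, and members over a DMR of those genotypes were left out, so that like signs are nearly fixed by the choice and nothing is read from them. In 313 of 319 members both differences had the same sign, and the median absolute difference of pat from mat *nrpd1+/-* was 38.8 points (range 30.005 to 100.0). In 185 members the DMR had the same start and end in both lists, so that subtracting the 2 differences gives the difference of mat *nrpd1+/-* from WT. This implied difference, which the choice also keeps small, had a median of 1.06 points (quartiles -2.43 and 7.38) and lay within 10 points in 135 of the 185 (73.0%). In 13 of them, all hypermethylated, the difference of pat *nrpd1+/-* from both genotypes was the same to 3 decimals. One of these is *XCP1*, a xylem cysteine peptidase gene, with 42.4 points against both. Hypomethylated members were farther from mat *nrpd1+/-* than from WT in 40 of 91 cases, and hypermethylated ones in 22 of 94. Since both comparisons use the pat libraries, likeness between the 2 differences is no independent support for either.

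**Figure D2:**
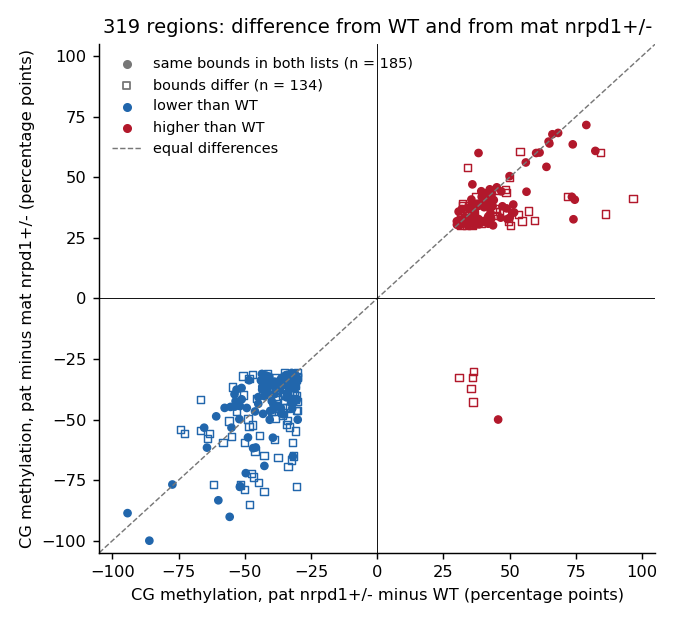
CG difference of pat *nrpd1+/-* from WT (x axis) and from mat *nrpd1+/-* (y axis), both in percentage points, for the 319 pat-specific DMRs. Blue marks are lower and red marks higher than WT, filled circles are the 185 DMRs with the same bounds in both lists, open squares the 134 whose bounds differ, and the dashed line marks equal differences. Of the members, 313 lie in the lower left and upper right quadrants and 6 in the lower right.

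In 6 members pat *nrpd1+/-* lay between the other genotypes, higher than WT and lower than mat *nrpd1+/-*. The clearest was at chr2:2859801-2860400, over the pseudogene AT2G06950, where pat *nrpd1+/-* was 45.7 points above WT and 50 points below mat *nrpd1+/-*. Bounds were the same in both lists, so that mat *nrpd1+/-* would stand 95.7 points above WT, and yet no DMR of WT against mat *nrpd1+/-* is listed there. Another lay in *SEP1*, a MADS-box gene of floral organ identity, with 30.9 points above WT and 32.8 below mat *nrpd1+/-*, and another in AT5G36930, a resistance gene of the TIR-NBS-LRR class, with 36.0 and 32.7 points. The other three lay in AT4G23215, 231 bp downstream of *DES1* and 218 bp upstream of *TOPP6*. In these 6, the rule picks DMRs where pat *nrpd1+/-* was intermediate and not where it stood alone. In 20 of the 319 members, these 6 included, the 2 listed differences were at least 30 points apart. In 6 with equal bounds the implied difference of mat *nrpd1+/-* from WT exceeded 30 points, although the WT against mat list holds no DMR there. Without those 20, 299 members remained. Why these places are missing from that list was not tested, since the lists do not show which windows had enough reads in each comparison.

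The share of paternal reads in pat *nrpd1+/-* was taken from the maternal-read blocks that hold the members. The median paternal share was 36.4% (range 31.2% to 38.4%), and the median maternal fraction was 0.633 for WT, 0.631 for mat *nrpd1+/-* and 0.636 for pat *nrpd1+/-*, near the 2:1 ratio of maternal to paternal genomes in endosperm. The authors' filter kept only sequence with a maternal fraction around that ratio, so this nearness follows from the filter and is not a finding. If the reads of a DMR split as those of its block do, a change of the paternal copies alone could move the pooled level by at most the paternal share. In 206 members (64.6%) the difference from WT was larger, in 114 of the 182 hypomethylated (62.6%) and 92 of the 137 hypermethylated ones (67.2%). The choice of members requires at least 30 points, which is close to the paternal share. These counts are therefore largely set by that threshold, and nothing is read from them. Methylation of each parental copy is not in the lists, and which copy changed was not tested.

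The largest losses were in unlike places. The deepest, -94.3 points at chr5:9601301-9601800, lay over a coding exon of AT5G27247, an uncharacterized gene, and over the pseudogene AT5G27250, and was -88.6 points against mat *nrpd1+/-*. Of the 60-base words of this region, 66.9% occur once in the reference, so that part of its reads may come from other copies. Next was -86.0 points at chr3:16682401-16682800, 403 bp downstream of AT3G45480, a RING/U-box protein gene, where pat *nrpd1+/-* was 100.0 points below mat *nrpd1+/-*. A second member with -36.2 points lay 100 bp away. The third, -77.4 points at chr5:20256401-20256700, was in AT5G49840, a gene for an ATP-dependent Clp protease.

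Among the remaining 7 of the 10 largest losses, 4 lay within about a kilobase upstream of protein-coding genes. These were *UMAMIT41*, a transporter gene (-74.2 points, 1007 bp upstream), AT3G44170, of the plant self-incompatibility S1 family (-72.7, 1089 bp), *MAG1*, which encodes a calcineurin-like phosphoesterase (-66.8, 384 bp), and *NAC071*, a NAC transcription factor gene (-66.7, 145 bp). One lay in an intron of the resistance gene AT5G45230 (-65.4 points). The last ones were beside or in the pseudogenes AT5G39205 (-64.3 points, 169 bp) and AT5G26283 (-64.2 points), and in the latter 43.2% of 60-base words occur once in the reference. That share was 80.4% upstream of *UMAMIT41*, 86.8% upstream of *NAC071* and 89.1% downstream of AT3G45480.

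The largest gain, 96.6 points at chr5:14012701-14013300, lay 852 bp downstream of *PHYC*, which encodes the photoreceptor phytochrome C. Against mat *nrpd1+/-* the gain there was 41.4 points, over a DMR 100 bp longer. In AT3G61010, of the ferritin/ribonucleotide reductase-like family, the gain at chr3:22573001-22573500 was 86.3 points over WT and 34.8 over mat *nrpd1+/-*. At chr4:2583901-2584400, 854 bp upstream of the long non-coding RNA gene AT4G05025, it was 84.3 and 60.1 points. In all 3, the gain over WT was the larger one.

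Among the remaining 7 of the 10 largest gains, 3 overlapped protein-coding genes: AT2G19230, a leucine-rich repeat receptor kinase gene (82.4 points), AT4G16930, which encodes a TIR-domain protein (73.5), and *ATSYP24*, a syntaxin gene (72.0). Another 3 overlapped the pseudogenes AT4G09455 (78.9 points), AT5G55896 (74.1) and AT3G48370 (73.8), and 1 lay 1320 bp downstream of AT3G44785, a zinc finger gene (74.6). Against mat *nrpd1+/-* all 7 were smaller, with 60.9 points in AT2G19230, 41.9 in AT4G16930 and 42.2 in *ATSYP24*. They were 71.6 points in AT4G09455, 32.6 in AT5G55896, 63.6 in AT3G48370 and 40.7 near AT3G44785. All but *ATSYP24* had the same bounds in both lists. In these, the implied difference of mat *nrpd1+/-* from WT was 41.4 points at AT5G55896, 33.9 near AT3G44785 and 31.6 in AT4G16930. It was 21.5 points in AT2G19230, 10.2 in AT3G48370 and 7.38 in AT4G09455. In AT4G09455, 37.4% of the 60-base words occur once in the reference.

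Losses and gains differed in how often they overlapped genes. Of the hypermethylated members, 95 of 137 overlapped a protein-coding gene (69.3%, interval 60.9% to 76.9%), whereas 70 of 182 hypomethylated members did (38.5%, interval 31.4% to 45.9%). Read the other way, 42.4% of the 165 members over genes were hypomethylated (interval 34.8% to 50.3%), as were 72.7% of the 154 members outside them (interval 65.0% to 79.6%). In the reference, 60.2% of 300-bp windows with a CG dinucleotide in kept sequence overlap a protein-coding gene. The gains thus lay somewhat above and the losses below that share. Hypomethylated members, with a median length of 400 bp, are longer than the windows, while hypermethylated ones have a median of 300 bp. The windows were not limited to those with enough cytosines and reads to be called. A loss also needs methylation in WT, and a gain needs room for more, and levels are not in the lists.

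This split was shared with the other DMRs of the list, of which 101 of 243 hypomethylated (41.6%) and 90 of 145 hypermethylated (62.1%) overlapped genes. Among mat-specific DMRs the shares lay closer together, with 63 of 101 hypomethylated (62.4%, interval 52.2% to 71.8%) and 66 of 99 hypermethylated (66.7%, interval 56.5% to 75.8%). The interval of hypomethylated mat-specific DMRs did not overlap that of hypomethylated pat-specific DMRs. The sets have WT and pat libraries in common, and no test between them was made.

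**Figure D3:**
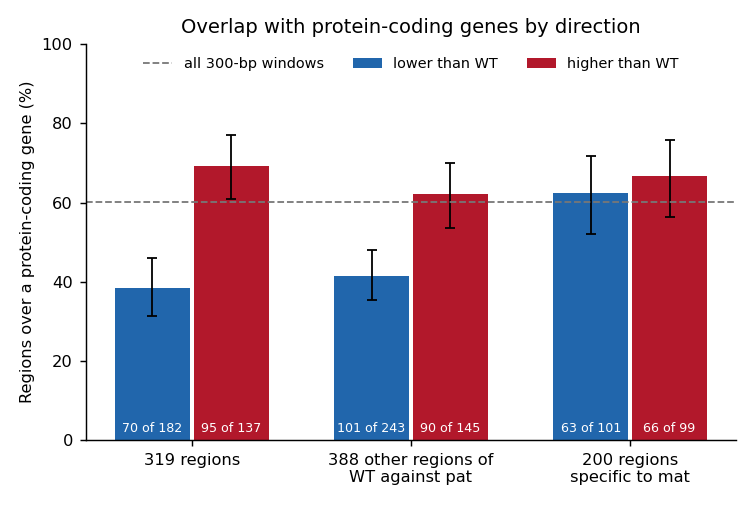
Share of regions that overlap a protein-coding gene by at least 1 bp (y axis, percent), for regions lower (blue) and higher (red) than WT in each of the 3 sets on the x axis. Bars carry exact 95% intervals for the counting of regions, the numbers in them are counts, and the dashed line marks the 60.2% of all 300-bp windows. In the pat-specific set the bars are 38.5% and 69.3%.

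By annotation, each member was put in the first class that applied, in the order given here. Of the 319 members, 165 overlapped a protein-coding gene, 35 a pseudogene and 7 an RNA gene. Another 61 lay within 1 kb of a protein-coding gene, and 51 in other intergenic sequence. Coding exons were overlapped by 44.2% of members (32.4% of losses and 59.9% of gains), against 48.7% of windows and 42.8% of the other DMRs of the list. Introns were overlapped by 34.8% of members and UTRs or non-coding exons by 15.7%, against 34.3% and 12.4% of those other DMRs. Counted by bases, 14.7% of the hypomethylated and 28.8% of the hypermethylated sequence was coding, against 28.5% of all kept sequence, and 54.8% and 28.9% lay in no annotated gene or pseudogene, against 36.7%. Sequence up to 1 kb upstream of a protein-coding gene lay under 27.9% of members and 27.2% of windows. It lay under 20.9% of the other DMRs of the list and 14.5% of mat-specific DMRs.

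Within genes, few members lay near the 5' end. The 165 genic members overlapped 173 protein-coding genes, and in 157 pairs the midpoint of the DMR lay within the gene. Of these midpoints, 9 (5.73%, interval 2.65% to 10.6%) fell in the first of 5 equal parts of the gene, against 19.5% of window midpoints in kept genes. The second part held 45 (28.7%), the third 27 (17.2%), the fourth 40 (25.5%) and the last 36 (22.9%). The first part held 5 of 66 midpoints of hypomethylated and 4 of 91 of hypermethylated members. Genes with a member were longer, with a median length of 3193 bp against 2033 bp over the 19950 protein-coding genes that lie wholly in kept sequence. A longer gene has more room for a DMR, and how far length accounts for the difference was not tested.

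**Figure D4:**
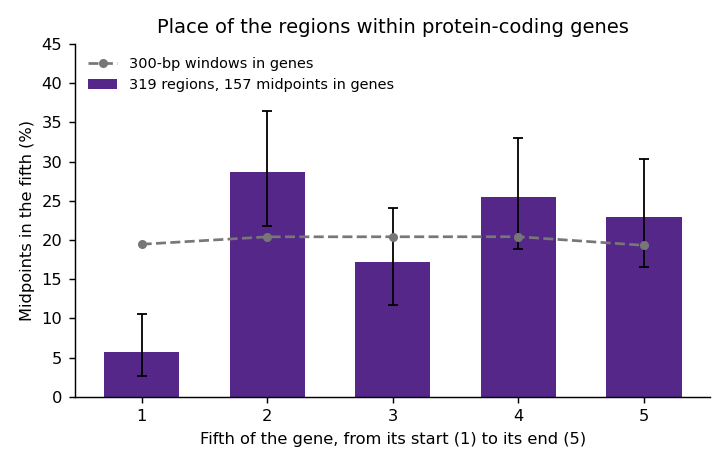
Place of the 157 midpoints of pat-specific DMRs that fall in protein-coding genes (purple bars, percent of midpoints, with exact 95% intervals) along the gene, cut into 5 equal parts from its start to its end (x axis). The grey points give the same for midpoints of all 300-bp windows with a CG dinucleotide in kept sequence, 19.3% to 20.4% in each part. The first bar stands at 5.73%.

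Of the kept protein-coding genes, 169 (0.847%) were overlapped by a member, and 307 (1.54%) had one within 1 kb. Only AT5G45230, a TIR-NBS-LRR resistance gene, held 2. Its DMR at chr5:18303101-18303400 differed from WT by 61.3 points and the one at chr5:18306101-18306500, in an intron, by -65.4 points. Against mat *nrpd1+/-* the differences were 60.2 and -53.4 points. Opposite changes thus lay 2700 bp apart in 1 gene.

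Genes of this class recurred among the members, a group noticed after the values were seen. They encode intracellular immune receptors and often stand in clusters of related copies. Of the 173 genes overlapped, 12 (6.94%) are annotated as TIR-NBS-LRR, TIR-domain or other disease resistance proteins, against 129 of the 19950 kept genes (0.647%). The share was not computed for the other DMRs of the list or the mat-specific DMRs, so it cannot be called particular to these members. Some of the 12 are neighbours, and genes with a member were longer. How far clustering and length account for the share was not tested. Gains were found in AT1G27180 (66.1 points), AT2G14080 (34.1), AT4G16920 (46.6), AT4G16930 (73.5), AT4G16940 (40.8), AT4G36140 (43.1), AT5G36930 (36.0), AT5G45230 (61.3) and AT5G45240 (40.4). Losses were found in AT4G09430 (-44.9 points), *SNC1* (-36.3), AT5G41750 (-51.2) and AT5G45230 (-65.4). In 10 of these 13 DMRs at least 90% of 60-base words occur once in the reference, the others being in AT4G09430 (54.8%), *SNC1* (88.9%) and AT4G16940 (89.6%).

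The cluster around *SNC1*, an immune receptor gene known for autoimmune alleles, held 7 members at chr4:9499901-9545300. A loss of -39.4 points lay 70 bp downstream of *SNC1*, where 10.4% of 60-base words occur once, and was followed by the loss within *SNC1*, a gain of 33.8 points over the non-coding RNA gene AT4G16892, the gains in AT4G16920, AT4G16930 and AT4G16940, and a gain of 50 points over AT4G16957, where 83.9% of 60-base words occur once. The gene copies of this cluster are known to differ between L*er* and Col-0, and reads were aligned to Col-0 sequence. Whether copy number or mapping moved with these values was not tested.

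Genes of 3 lists were looked up. Of 24 genes of RNA-directed DNA methylation, 21 lay wholly in kept sequence and 1, *DCL3* (AT3G43920), held a member. At chr3:15754501-15754800, over an exon and an intron, pat *nrpd1+/-* was 33.9 points above WT and 37.0 above mat *nrpd1+/-*. A second member, 34.8 points above WT and 30.8 above mat *nrpd1+/-*, lay in the neighbouring gene AT3G43910, 1786 bp from *DCL3*. Of 15 genes that maintain or remove DNA methylation, 7 were kept and 0 had a member within 1 kb. Of 28 endosperm regulators and imprinted genes, 19 were kept and 2 had a member within 1 kb. In *MPC*, an imprinted gene expressed from the maternal copy, pat *nrpd1+/-* was 31.2 points below WT and 33.6 below mat *nrpd1+/-*. Downstream of *TAR1*, an auxin biosynthesis gene, it was 38.2 and 43.5 points below. These are 3 of 47 kept genes, and for comparison 1.54% of all kept genes had a member within 1 kb.

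Few members changed in CHH as well. A CHH DMR between WT and pat *nrpd1+/-*, listed at a threshold of 10 points, overlapped 14 of the 319 (4.39%, interval 2.42% to 7.25%), against 1.12% of 300-bp windows. The other 388 DMRs had 15 (3.87%). All 14 were hypomethylated in CG, 7.69% of the 182 (interval 4.27% to 12.6%). Of the 137 hypermethylated members 0 had one, which allows a share of up to 2.19% by a limit of 3 counts. The other DMRs of the list divided alike, with 15 of 243 hypomethylated and 0 of 145 hypermethylated. In 12 of the 14, CHH methylation was also lower than in WT, and 12 of the 14 lay outside protein-coding genes. Of the 14, 4 also overlapped a CHH DMR of pat against mat *nrpd1+/-*.

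Among the 5 with the largest CHH difference, the region upstream of *LBD4*, a LOB-domain transcription factor gene, was lower in both contexts against both genotypes. At chr1:11212401-11212800, 157 bp from the gene, the CG difference was -46.7 points from WT and -73.7 points from mat *nrpd1+/-*, and the CHH difference -18.4 and -19.1 points. This member also overlapped a CHH region that varied between the pat *nrpd1+/-* replicates. Upstream of *UMAMIT41* the losses against WT were -74.2 points in CG and -17.5 in CHH. In AT4G02910 they were -46.2 and -16.2 points. Both of these members also overlapped a CHH region that varied between the mat *nrpd1+/-* replicates. At chr4:5719501-5719800, 3298 bp from AT4G05675, the losses were -37.2 and -17.7 points. The CHH difference of mat *nrpd1+/-* from WT there was -16.6 points. None of the members at *UMAMIT41*, AT4G02910 and AT4G05675 overlapped a CHH DMR of pat against mat *nrpd1+/-*. At chr3:11483201-11483600, 203 bp from the long non-coding RNA gene AT3G05895, CG fell by 36.3 points while CHH methylation was 32.8 points higher than in WT, and the member also overlapped CHH regions that varied between the replicates of WT and of mat *nrpd1+/-*. A second region of this kind, 3134 bp from AT3G29260, had -54.5 points in CG and 14.97 in CHH.

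**Figure D5:**
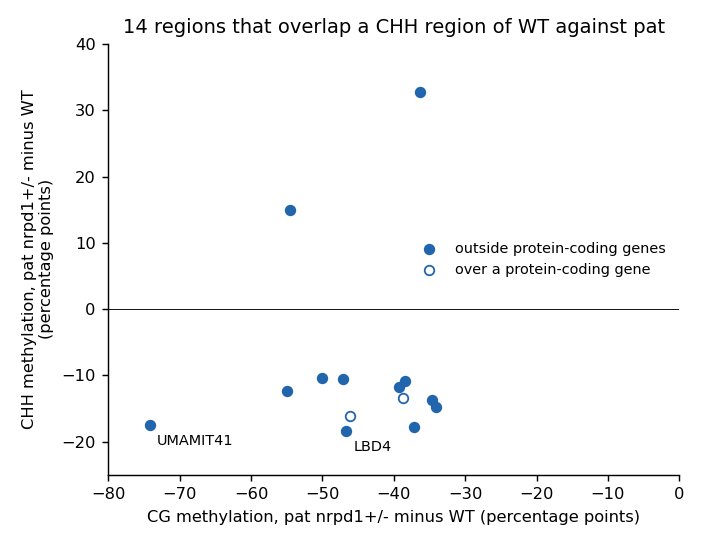
CG difference (x axis) and CHH difference (y axis) of pat *nrpd1+/-* from WT, in percentage points, for the 14 pat-specific DMRs that overlap a CHH DMR of this comparison. Filled points lie outside protein-coding genes and open points over one. All 14 are lower in CG, and 2 of them are higher in CHH, by 32.8 and 14.97 points.

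In the other comparisons, 13 members (4.08%) overlapped a CHH DMR of pat against mat *nrpd1+/-*, which 1.35% of windows did, and 10 of them moved the same way in both contexts. A CHH DMR of WT against mat *nrpd1+/-* lay over 10 members (3.13%), against 1.38% of windows. In all, 293 members overlapped no CHH DMR of any comparison. CHH regions that varied between replicates lay over 16 members for WT (5.02%), 21 for mat *nrpd1+/-* (6.58%) and 23 for pat *nrpd1+/-* (7.21%), against 2.78%, 3.92% and 3.10% of windows. A member can overlap such a region and a CHH DMR in different parts.

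The members were spread over all 5 chromosomes, with 3.30 to 3.88 per Mb of kept sequence and hypomethylated shares from 51.0% on chromosome 2 to 61.0% on chromosome 3. Neighbouring members lay a median of 158050 bp apart. Of the 4 pairs within 1 kb, all moved the same way, and of the 31 pairs within 10 kb, 23 did. The share over all neighbouring pairs is not given, and nothing is read from these counts. The 1-Mb bin of chromosome 3 from 15000001 held 13 members, that of chromosome 2 from 1000001 held 11 and that of chromosome 4 from 9000001, with the *SNC1* cluster, held 10.

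In sequence, the members had a median of 1.75 CG dinucleotides per 100 bp (interval 1.67 to 2.00) and a GC content of 35.0%, against 2.00 and 36.3% in windows and 1.67 and 34.7% in the other DMRs of the list. In 159 members (49.8%) the DMR was a single window of 300 bp, against 67.5% of the other DMRs. At the low end, 15 members (9 hypermethylated, 14 of the 15 over protein-coding genes) hold 1 CG dinucleotide in the reference, that is, 2 cytosines over both strands, fewer than the minimum of 3 in the study's methods. The loss in AT5G49840 is one of them, as are the gain of 50 points in *ASF1B*, a histone chaperone gene, and the one in *XCP1*. The same holds for 34 of all 707 DMRs of the list, and how such windows passed was not tested. In 260 members every 60-base word occurs once in the reference, in 39 under 90% and in 7 under 50% do.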

How the data were processed

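The authors trimmed the reads of the 6 bisulfite libraries with Trim Galore, checked them with FastQC and aligned them with Bismark to TAIR10, per the labels and the study's methods. Methylation was computed by the authors in 300-bp windows overlapping by 200 bp, with the replicates of a genotype pooled, at least 3 shared cytosines and 6 reads per cytosine. Windows that differed by 30 percentage points (CG) or 10 (CHH) were merged. The deposited score of a DMR is a difference in percentage points, and the deposited fraction of the maternal-read lists is the share of maternal reads. Versions are not given in the sources used here. Depth is unknown from the lists, and reads of amplified DNA cannot be counted as separate molecules.

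The 15 deposited lists were joined by overlap with Python 3.11.15, numpy 2.4.6 and scipy 1.17.1. The sign of the list of pat against mat *nrpd1+/-*, given by the authors as mat minus pat, was turned. One header is displaced: the CHH list that sets pat *nrpd1+/-* against WT names its length column as the difference, and the column after it was used. Regions on organelle genomes were left out. Kept sequence is that of the maternal-read lists without CG regions that varied between replicates. The reference was the RefSeq copy of TAIR10.1. Its lengths of chromosomes 3 (23459830) and 5 (26975502) equal the last listed bases. It holds no transposon annotation.

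The genes and places named are, by rule, the 10 largest losses and gains, listed genes with a member within 1 kb, genes with 2 members, the 5 largest CHH differences among members over a CHH DMR of WT against pat *nrpd1+/-*, and the 3 members nearest the threshold. Others were chosen after their values were seen. The members and the gene lists were chosen with earlier results of these data known. No test was made, because the regions are not replicates and were selected on the differences described. Alternatives were another overlap, threshold, length, direction, distance or chromosome set. The interval code was tested on simulated lists.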

Additional observations from a re-analysis of the deposited data

How the results depend on the processing

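Recomputed were the number of members, their hypomethylated share, median difference, overlap with genes and with CHH DMRs, CG content and gene-list counts. Over 102 alternatives in all, 95 of the values stayed within 1.5 times the count or within the interval of the value reported. Some of these could not move or could hardly do so, and the tally is no measure of stability. Only regions wholly kept in all 3 genotypes were again the same 319 members. Leaving out 1 chromosome kept 237 to 270 members, always within the limit on the count. The gene and CHH overlaps by direction, the places within genes and the count of resistance genes were not recomputed. The hypomethylated share was recomputed under 14 of the alternatives and stayed between 54.5% and 61.3%, but its interval reached below 50% with a minimum difference of 40 points (lower bound 46.3%), without chromosome 3 (49.1%) and with only regions of at least 90% of 60-base words found once (49.3%). A minimum difference of 40 points left 156 members with a median absolute difference of 48.4 points. Without regions of a single window, 160 members remained, with a median of 41.5 points, and 44.4% of them overlapped a protein-coding gene while 69.4% overlapped or lay within 1 kb of one. That last share was 75.5% as reported and 85.6% with a distance of 2 kb. By construction, fewer members remain under the first 2 alternatives, the median rises with a minimum of 40 points, and more genes are in reach at 2 kb. The cause of the other shifts was not tested. Alternatives chosen after the data were examined left out the 15 members with 1 CG dinucleotide, the 20 whose 2 differences lie 30 points or more apart, or the 39 with under 90% of 60-base words found once, and moved none of the values beyond those limits. No replicate could be left out, because the lists pool both replicates. No paired analysis was possible because the lists hold no values per replicate and no result comes from a test. The unknown depth limits what absence from a list shows.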
